A study of Mus musculus with 12 samples.

Results

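The 10 transcripts that encode the enzymes of serine synthesis, of folate one-carbon metabolism and of the last step of proline synthesis were described in mouse hearts under pressure overload and a diet free of branched-chain amino acids. The members were the rows whose gene symbol was Shmt2, Mthfd2, Mthfd1l or Aldh1l2 (the mitochondrial folate enzymes), Shmt1 or Mthfd1 (the cytosolic folate enzymes), Phgdh, Psat1 or Psph (serine synthesis) or Pycr1 (proline synthesis). They are 10 of the 16514 genes listed in the deposited tables, and each of the 10 had reads in all 12 libraries and entered every test. The 4 groups of 3 libraries came from hearts of male C57Bl/6J mice aged 12 weeks. BCAA-free TAC hearts came from mice fed without leucine, isoleucine and valine (the branched-chain amino acids, BCAA) and subjected to transverse aortic constriction (TAC), a surgical narrowing of the aorta that raises the pressure load on the left ventricle. Control TAC hearts came from mice with the same surgery on a diet that held these amino acids. BCAA-free sham and control sham hearts came from mice of each diet with a sham operation. Both diets held 1% propionate, so no group was without it. The diets were given from 4 days before surgery until the hearts were taken, 1 week after it.

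Folate carries single carbon units between serine, glycine, formate, purines and thymidylate. In mitochondria, Shmt2 moves a carbon from serine to tetrahydrofolate, Mthfd2 oxidizes it, and Mthfd1l releases it as formate or Aldh1l2 oxidizes it to carbon dioxide while making NADPH. In the cytosol, Mthfd1 joins formate to folate for purine and thymidylate synthesis, and Shmt1 interconverts serine and glycine. Phgdh, Psat1 and Psph make serine from a glycolytic intermediate in that order, and Pycr1 makes proline from pyrroline carboxylate in mitochondria. Mthfd2 is known for high expression in embryonic and dividing cells and low expression in most adult tissues, and several of these genes are known targets of the transcription factor ATF4, which is induced when amino acids are scarce.

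The libraries held 29929161 to 46101244 reads assigned to the listed genes. Levels below are in CPM, these reads scaled to their library's total with TMM factors so that the 4 groups stand on 1 scale, and a level per kilobase of exon is used wherever different genes are compared. Whether each library is a mouse of its own is not in the labels. A p-value here sets the difference between groups against the spread of libraries within a group, and that spread may be technical. Summed cardiomyocyte markers (8 of 8 listed, in CPM without TMM factors, as for all marker sums) ranged from 80569 to 93708 CPM over the 12 libraries. Control TAC replicate 3 stood apart in liver markers (Alb, Apoa1 and 14 others), which summed to 347 CPM there and to 17.4 to 41.9 in the other libraries. In bulk tissue, fewer cells of a type and less RNA per cell cannot be told apart.

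The promoters of 4 members are shown. In the averaged tests below, Mthfd2 and Mthfd1l fell with the BCAA-free diet and rose with TAC. Mthfd1, their steady cytosolic counterpart, passed in no comparison. Pycr1 rose with averaged TAC, and its lower averaged diet value did not pass. Each promoter is 300 bases from RefSeq (GRCm38.p6), from 250 bases before to 50 bases after the annotated start. It is read 5′ to 3′ on the gene's strand. Capitals mark matches on either strand to CCAAT, the motif of the factor NF-Y, or to TGATGNAA, the element bound by ATF4 with C/EBP proteins.
Mthfd2: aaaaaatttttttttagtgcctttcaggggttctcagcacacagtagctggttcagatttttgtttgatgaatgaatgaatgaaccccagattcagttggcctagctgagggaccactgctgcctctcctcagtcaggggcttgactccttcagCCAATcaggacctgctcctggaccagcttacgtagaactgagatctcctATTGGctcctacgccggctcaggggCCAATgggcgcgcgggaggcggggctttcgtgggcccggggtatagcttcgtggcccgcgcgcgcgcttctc
Mthfd1l: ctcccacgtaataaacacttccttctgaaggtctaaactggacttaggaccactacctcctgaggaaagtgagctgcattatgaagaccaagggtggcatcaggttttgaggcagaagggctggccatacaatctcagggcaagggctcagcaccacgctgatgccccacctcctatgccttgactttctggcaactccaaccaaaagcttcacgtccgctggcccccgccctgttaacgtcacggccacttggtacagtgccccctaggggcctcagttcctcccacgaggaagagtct
Mthfd1: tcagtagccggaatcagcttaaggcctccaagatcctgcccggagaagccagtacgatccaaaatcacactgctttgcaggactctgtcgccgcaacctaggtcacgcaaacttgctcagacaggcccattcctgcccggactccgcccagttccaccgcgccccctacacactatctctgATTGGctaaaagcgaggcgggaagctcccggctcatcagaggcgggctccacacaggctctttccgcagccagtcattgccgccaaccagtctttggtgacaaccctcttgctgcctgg
Pycr1: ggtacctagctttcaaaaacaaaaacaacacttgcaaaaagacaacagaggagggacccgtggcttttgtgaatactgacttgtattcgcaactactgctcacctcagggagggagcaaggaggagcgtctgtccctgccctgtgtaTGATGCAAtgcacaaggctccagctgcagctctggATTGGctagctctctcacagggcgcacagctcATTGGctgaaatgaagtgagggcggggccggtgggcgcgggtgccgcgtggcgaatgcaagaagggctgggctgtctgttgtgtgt

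The Mthfd2 window lies at chr6:83317555-83317854 and the Pycr1 window at chr11:120643699-120643998, both on the minus strand. In GENCODE M21, the source of the gene coordinates below, the Mthfd2 gene runs from 83305691 to 83325908. The RefSeq start used for its window thus lies inside that span and not at its outer end. The Mthfd1l window lies at chr10:3972825-3973124 and the Mthfd1 window at chr12:76254982-76255281, both on the plus strand. The Mthfd2 window held 3 CCAAT matches, at -96, -47 and -22 from the start. The Mthfd1 window held 1, at -69, the Pycr1 window 2, at -68 and -36, and the Mthfd1l window 0. Promoters of 9 of the 10 members were in the RefSeq table, and 7 of these 9 held CCAAT, against 37.4% of all 32851 mouse promoters of that length. TGATGNAA was searched for on both strands as well; it does not overlap CCAAT in these windows. It was found in 1 member, Pycr1, as TGATGCAA at -103, against 3.97% of all promoters. The E-box CACGTG, bound by MYC and related factors, was found in 0 of the 9 members, against 7.15% of all promoters. These matches describe the letters of the windows and say nothing about binding in these hearts.

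The 10 transcripts covered a wide span of levels, and the most abundant were the steadiest. Per kilobase of exon, Shmt2 was the highest member in all 4 groups, with 14.4 ± 2.31 CPM in BCAA-free TAC, 14.5 ± 0.837 in control TAC, 14.0 ± 0.782 in BCAA-free sham and 15.1 ± 0.559 in control sham hearts (SD, n = 3 each). Mthfd1 was second, with group means of 7.10 to 7.34, and no library of either gene overlapped the other. In control TAC hearts Mthfd2 followed at 3.98 ± 0.930 (SD, n = 3), just above Shmt1 at 2.67 ± 0.364, with a lowest Mthfd2 value of 3.12 and a highest Shmt1 value of 2.98. In the other 3 groups Shmt1 followed Mthfd1, at 2.40 to 3.04, and Mthfd2 stood at 0.990 in BCAA-free TAC, 0.631 in BCAA-free sham and 1.15 in control sham hearts. Below that, the members averaged between 0.211 and 1.35 per kilobase, and most neighbours in the order overlapped between libraries. Among the neighbours that did not, Psph stood above Mthfd2 and Aldh1l2 above Pycr1 in BCAA-free sham hearts. Across the 12 libraries the highest value of Mthfd2 was 9.85 times its lowest, that of Mthfd1l 6.27 times and that of Pycr1 5.99 times. The same ratio was 1.42 for Shmt1, 1.31 for Shmt2 and 1.16 for Mthfd1.

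**Figure D1:**
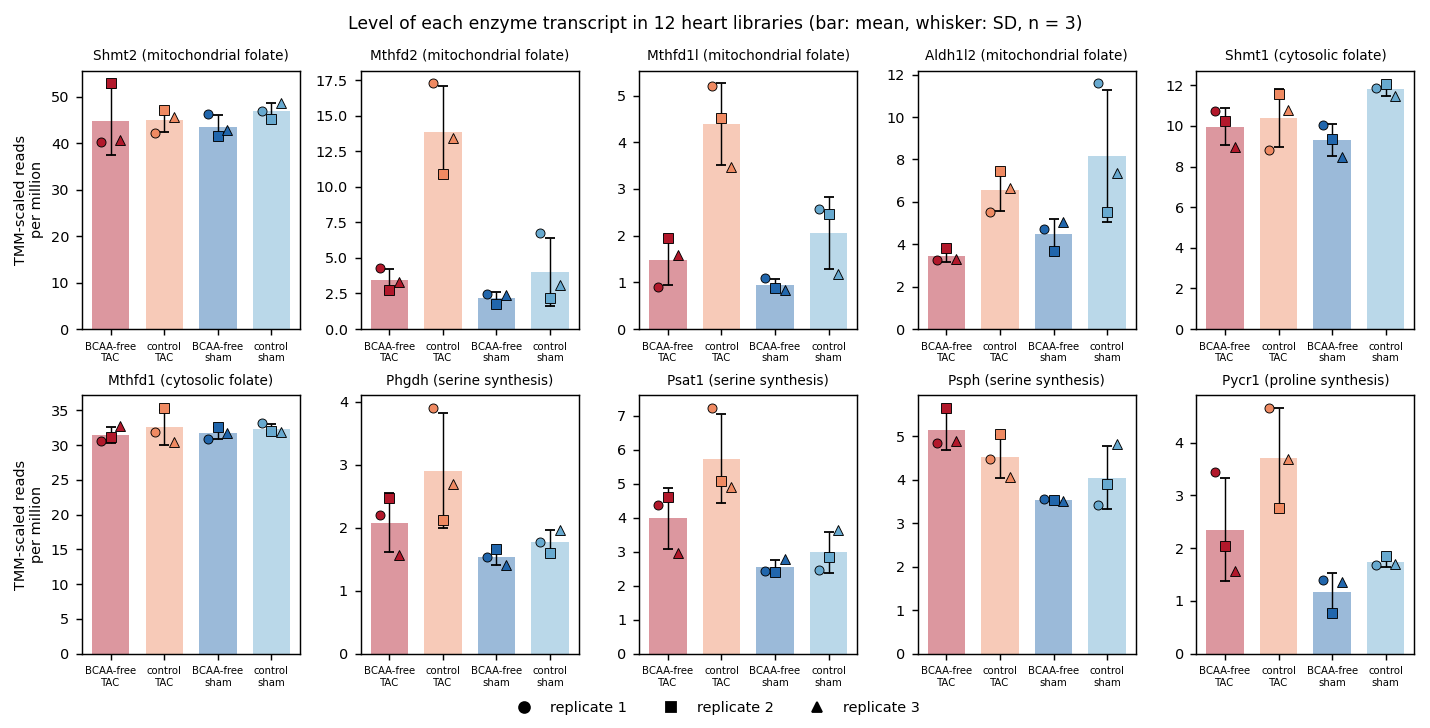
Levels of the 10 enzyme transcripts in TMM-scaled CPM, with a panel per gene, a point per library, bars for the group mean and whiskers for the SD (n = 3). Mthfd2 stands between 10.9 and 17.3 in control TAC hearts, above its level in every other library, while Shmt2 and Mthfd1 hold nearly the same level in all 4 groups.

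Each pair of groups that differed in surgery or in diet alone was tested with limma on the log2 scale of the deposited normalised values plus 4, with Benjamini-Hochberg adjustment over all genes and a threshold of 0.05. TAC on the control diet raised 3 of the 10 members, Mthfd2, Psat1 and Pycr1, where 3.4% of all 15873 genes tested rose. For the same comparison edgeR called 3 members and 731 genes in all, and DESeq2 called 4 members and 1544 genes. TAC on the BCAA-free diet raised 0 members by limma, where 2.94% of 15936 genes rose. There 5 members, of which Aldh1l2 was lower, and 21.4% of all genes had an unadjusted limma p under 0.05. On that diet edgeR called 0 members and 668 genes in all, and DESeq2 called 0 members and 1159 genes. In TAC hearts, the BCAA-free diet lowered 3 members, Mthfd2, Mthfd1l and Aldh1l2, where 2.11% of 16222 genes fell. In sham hearts the diet changed 0 members by limma, where 2.81% of 15596 genes changed and 1.76% fell. In these hearts 4 members and 18.3% of all genes had an unadjusted limma p under 0.05. For this pair edgeR called 0 members and 464 genes in all, and DESeq2 called 2 members and 5.3% of all genes. The difference between the TAC responses of the diets passed for 0 members, where 0.0451% of 15524 genes passed. In that test 1 of the 10 members (Mthfd2) and 10.1% of all genes had an unadjusted limma p under 0.05. By edgeR 0 members and 5 genes in all passed, and by DESeq2 0 members and 109 genes. Averaged over both diets, TAC raised 6 members (Mthfd2, Mthfd1l, Phgdh, Psat1, Psph and Pycr1), where 9.67% of 15524 genes rose. Averaged over both surgeries, the diet lowered Mthfd2, Mthfd1l and Aldh1l2, where 6.57% of 15458 genes fell. Members whose libraries did not overlap between the groups were 5 of 10, all higher, for TAC on the control diet (14.5% of all genes were higher in that way) and 4 of 10, all higher, for TAC on the BCAA-free diet (14%). For the BCAA-free diet they were 4 of 10, all lower, in TAC hearts (13% of all genes) and 4 of 10, all lower, in sham hearts (11.8%). The 4 pairs share groups (control TAC, for example, enters both the TAC test on the control diet and the diet test in TAC hearts), so their values for a member are not independent of each other.

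**Figure D2:**
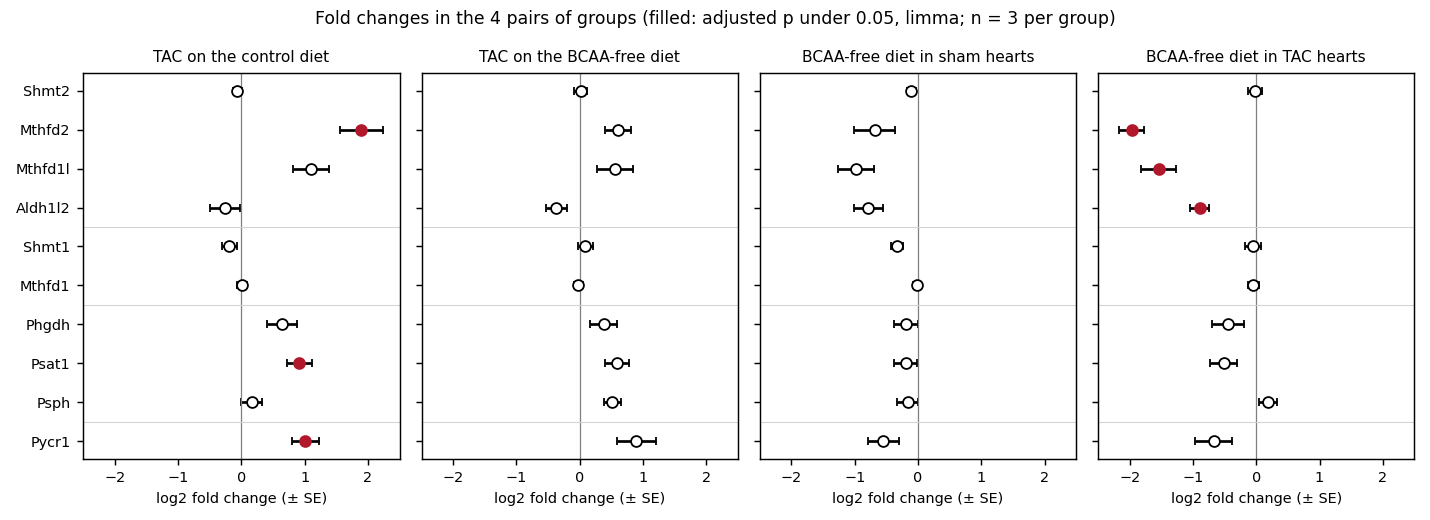
Log2 fold changes of the 10 members in the 4 pairs of groups, with a point and its standard error per member and filled points for an adjusted p under 0.05 by limma (n = 3 per group). Mthfd2 has the highest point on the left (1.89 for TAC on the control diet) and the lowest on the right (-1.97 for the BCAA-free diet in TAC hearts), and the points of Shmt2 and Mthfd1 lie between -0.10 and 0.02 in all 4 panels.

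Mthfd2, the mitochondrial methylenetetrahydrofolate dehydrogenase and cyclohydrolase (chromosome 6, 83305691 to 83325908, minus strand, GRCm38), had the member values farthest from zero for TAC on the control diet and for diet in TAC hearts. Its level was 4.30, 2.77 and 3.28 CPM in the BCAA-free TAC libraries and 17.3, 10.9 and 13.4 in the control TAC libraries. It was 2.44, 1.76 and 2.41 in the BCAA-free sham libraries and 6.73, 2.20 and 3.09 in the control sham libraries. All 3 control TAC libraries lay above the other 9, and among the sham libraries control sham replicate 1 stood high. On the control diet TAC raised Mthfd2 3.71-fold (log2 1.89 ± 0.34 SE, limma adjusted p = 0.0176). On the BCAA-free diet the TAC value was 0.61 ± 0.21 (adjusted p = 0.125), with no overlap between the groups. In TAC hearts Mthfd2 fell by 1.97 ± 0.20 on the log2 scale on the BCAA-free diet (adjusted p = 0.00307), to 3.45 ± 0.776 CPM, against 13.9 ± 3.24 in control TAC hearts (SD, n = 3 each). In sham hearts the diet value was -0.68 ± 0.33 (adjusted p = 0.295), and the groups overlapped. The TAC response was smaller on the BCAA-free diet by 1.28 ± 0.44 on the log2 scale, which did not pass (limma adjusted p = 0.324). The call for TAC on the control diet was lost without any 1 of 3 libraries: control sham replicate 3 (adjusted p = 0.061), control TAC replicate 1 (0.0596) or replicate 3 of that group (0.0961). The fall in TAC hearts passed without any single library. With neither control TAC replicate 2 nor 3, only replicate 1 of that group was left. The value was then -2.31, and no gene could be called in that setting.

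Mthfd1l, the monofunctional enzyme that releases formate in mitochondria (chromosome 10, 3973118 to 4167081, plus strand), fell on the BCAA-free diet in TAC hearts. Its level was 0.909, 1.96 and 1.59 CPM in the BCAA-free TAC libraries and 5.20, 4.53 and 3.46 in the control TAC libraries. It was 1.09, 0.880 and 0.829 in the BCAA-free sham libraries and 2.56, 2.46 and 1.18 in the control sham libraries. The BCAA-free libraries lay below the control libraries in sham and in TAC hearts alike, without overlap. In TAC hearts Mthfd1l fell by 1.54 ± 0.28 on the log2 scale on the BCAA-free diet (limma adjusted p = 0.0199), and averaged over surgeries it fell by 1.26 ± 0.21 (adjusted p = 0.00284). In sham hearts the value was -0.98 ± 0.29 (adjusted p = 0.097). TAC averaged over diets raised Mthfd1l by 0.83 ± 0.21 (adjusted p = 0.0177), while neither diet alone passed (1.10 ± 0.29 on the control diet, adjusted p = 0.0571, and 0.55 ± 0.28 on the BCAA-free diet, adjusted p = 0.292). On the control diet DESeq2 on the recovered reads did call it (1.10, adjusted p = 0.00416), as did the authors' deposited table (adjusted p = 0.00421), and edgeR did not (1.09, adjusted p = 0.0704). These levels rest on 30 to 234 reads per library. The diet call in TAC hearts was lost without any 1 of the control TAC libraries or without BCAA-free TAC replicate 3 (adjusted p = 0.0535 to 0.0964), and a diet call in sham hearts appeared without control sham replicate 3 (-1.32, adjusted p = 0.0072) and by DESeq2 (adjusted p = 0.0248).

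Aldh1l2, the mitochondrial formyltetrahydrofolate dehydrogenase (chromosome 10, 83487450 to 83534140, minus strand), was lower on the BCAA-free diet in both surgeries. Its level was 3.25, 3.81 and 3.30 CPM in the BCAA-free TAC libraries and 5.53, 7.44 and 6.65 in the control TAC libraries. It was 4.71, 3.69 and 5.06 in the BCAA-free sham libraries and 11.6, 5.52 and 7.36 in the control sham libraries. The BCAA-free libraries were the lower ones in both surgeries, without overlap, and control sham replicate 1 was the highest of the 12. In TAC hearts Aldh1l2 fell by 0.89 ± 0.15 on the log2 scale on the BCAA-free diet (limma adjusted p = 0.0161), and averaged over surgeries it fell by 0.84 ± 0.15 (adjusted p = 0.00431). In sham hearts the diet value was -0.78 ± 0.23 (adjusted p = 0.0943). TAC did not pass on either diet, with -0.26 ± 0.24 on the control diet and -0.37 ± 0.16 on the BCAA-free diet (adjusted p = 0.574 and 0.218). The value on the control diet turned to 0.03 without control sham replicate 1. The level of Aldh1l2 per kilobase over that of Mthfd2 was 0.486 in BCAA-free TAC and 0.232 in control TAC hearts, and 0.950 in BCAA-free sham and 1.02 in control sham hearts. Exons of D10Wsu102e share 1056 bases with Aldh1l2 on the opposite strand, and whether reads were counted by strand is not given in the sources used here; D10Wsu102e itself did not pass in any comparison, with log2 values between -0.08 and -0.02. The diet call in TAC hearts was lost without control TAC replicate 2 or 3 or BCAA-free TAC replicate 2 or 3 (adjusted p = 0.0529 to 0.13), and a call in sham hearts appeared without control sham replicate 2 (-1.03, adjusted p = 0.0275) and by DESeq2 (adjusted p = 0.00545). The authors' deposited table also lists Aldh1l2 (adjusted p = 0.00576) and Mthfd1l (adjusted p = 0.026) in the sham diet comparison.

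Shmt2, the mitochondrial serine hydroxymethyltransferase that feeds carbon into this arm (chromosome 10, 127517123 to 127522444, minus strand), did not pass in any comparison. Its level was 40.3, 53.0 and 40.8 CPM in the BCAA-free TAC libraries and 42.2, 47.2 and 45.7 in the control TAC libraries. It was 46.2, 41.5 and 42.9 in the BCAA-free sham libraries and 47.0, 45.3 and 48.7 in the control sham libraries. The groups overlapped in all 4 pairs, and the log2 values lay between -0.10 and 0.02, with standard errors of 0.07 to 0.11. Of the 4 mitochondrial enzymes, the 3 downstream of Shmt2 were the ones whose transcripts fell with the diet in TAC hearts. The median of the 4 log2 values for the diet was -1.22 in TAC hearts and -0.73 in sham hearts.

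The cytosolic enzymes stayed close to their control levels. Mthfd1, the multifunctional folate enzyme of the cytosol (chromosome 12, 76255298 to 76319803, plus strand), was at 30.6, 31.2 and 32.8 CPM in the BCAA-free TAC libraries and at 31.9, 35.4 and 30.5 in the control TAC libraries. It was at 30.9, 32.7 and 31.8 in the BCAA-free sham libraries and at 33.2, 32.0 and 31.9 in the control sham libraries. Its log2 values in the 4 pairs lay between -0.04 and 0.01, with standard errors of 0.06 to 0.08. Shmt1, the cytosolic serine hydroxymethyltransferase (chromosome 11, 60788104 to 60811718, minus strand), was at 10.7, 10.2 and 8.96 CPM in the BCAA-free TAC libraries and at 8.82, 11.6 and 10.8 in the control TAC libraries. It was at 10.05, 9.37 and 8.49 in the BCAA-free sham libraries and at 11.8, 12.1 and 11.5 in the control sham libraries. In sham hearts the 3 BCAA-free libraries lay below the 3 control libraries (log2 -0.33 ± 0.10, limma adjusted p = 0.101). In the other 3 pairs its log2 values lay between -0.19 and 0.09. Shmt1 shares 184 exon bases with Smcr8 on the opposite strand, and Smcr8 fell by 0.35 ± 0.08 in the same sham comparison (adjusted p = 0.0375); its part in the Shmt1 value was not tested.

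Set against each other per kilobase, the mitochondrial enzymes stood closest to the cytosolic ones in control TAC hearts. The mean log2 level of the 4 mitochondrial enzymes minus that of the 2 cytosolic ones was -1.997, -1.70 and -1.81 in the BCAA-free TAC libraries and -0.55, -0.89 and -0.80 in the control TAC libraries. It was -1.91, -2.23 and -1.92 in the BCAA-free sham libraries and -1.08, -1.77 and -1.74 in the control sham libraries. The 3 control TAC libraries were the highest of the 12, with control sham replicate 1 next to them. As a description with no test, the group means differed by 0.78 between TAC and sham on the control diet, by 0.18 between TAC and sham on the BCAA-free diet, by -1.09 between diets in TAC hearts and by -0.49 between diets in sham hearts. Without Mthfd2 in the mitochondrial mean, the TAC difference on the control diet was 0.37 and the diet difference in TAC hearts -0.80. Without Aldh1l2, the TAC difference on the BCAA-free diet was 0.38. The ratio of Mthfd2 to Mthfd1 per kilobase averaged 0.140 in BCAA-free TAC and 0.548 in control TAC hearts, and 0.0885 in BCAA-free sham and 0.156 in control sham hearts. The ratio of Shmt2 to Shmt1 averaged 5.62 in BCAA-free TAC, 5.46 in control TAC, 5.86 in BCAA-free sham and 4.98 in control sham hearts.

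**Figure D3:**
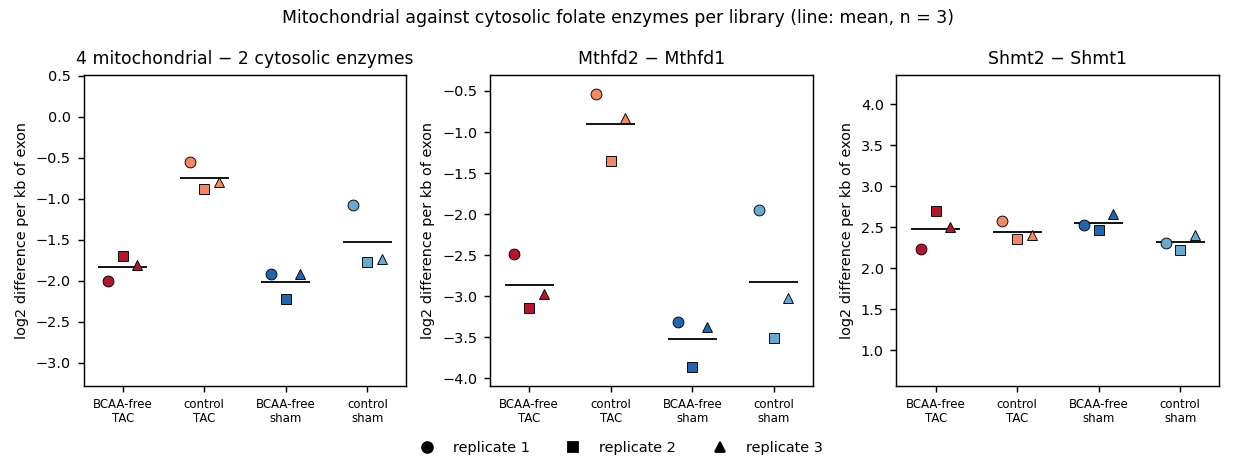
Difference between mitochondrial and cytosolic folate enzymes in each library, in log2 units per kilobase of exon, for the arm means, for Mthfd2 minus Mthfd1 and for Shmt2 minus Shmt1. The 3 panels span the same height, a point is a library and a line is the mean of 3; control TAC libraries are highest in the first and second panels, and the groups lie close together in the third.

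The serine synthesis genes rose after TAC averaged over diets, and with diet none of the 3 passed the test. Phgdh, which commits a glycolytic intermediate to serine (chromosome 3, 98313170 to 98339990, minus strand), was at 2.20, 2.47 and 1.57 CPM in the BCAA-free TAC libraries and at 3.91, 2.13 and 2.69 in the control TAC libraries. It was at 1.54, 1.66 and 1.41 in the BCAA-free sham libraries and at 1.78, 1.59 and 1.97 in the control sham libraries. TAC and sham libraries did not overlap on the control diet and did on the BCAA-free diet. Averaged over diets, TAC raised Phgdh by 0.51 ± 0.16 on the log2 scale (limma adjusted p = 0.0424). Neither diet alone passed for Phgdh. Its TAC value was 0.64 ± 0.23 on the control diet and 0.38 ± 0.21 on the BCAA-free diet (limma adjusted p = 0.145 and 0.334). Psat1, the transaminase of the second step (chromosome 19, 15904678 to 15947337, minus strand), was at 4.38, 4.62 and 2.96 CPM in the BCAA-free TAC libraries and at 7.24, 5.07 and 4.91 in the control TAC libraries. It was at 2.44, 2.41 and 2.79 in the BCAA-free sham libraries and at 2.46, 2.84 and 3.65 in the control sham libraries. All TAC libraries lay above the sham libraries of their diet. TAC raised Psat1 by 0.91 ± 0.20 on the control diet (adjusted p = 0.0335) and by 0.75 ± 0.14 averaged over diets (adjusted p = 0.00392), and the value on the BCAA-free diet was 0.59 ± 0.19 (adjusted p = 0.107). In TAC hearts Psat1 was lower without overlap on the BCAA-free diet but did not pass (-0.52 ± 0.21, adjusted p = 0.218).

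Psph, the phosphatase that completes serine synthesis (chromosome 5, 129765558 to 129787449, minus strand), had its larger TAC value on the BCAA-free diet. Its level was 4.85, 5.65 and 4.89 CPM in the BCAA-free TAC libraries and 4.46, 5.05 and 4.06 in the control TAC libraries. It was 3.56, 3.54 and 3.51 in the BCAA-free sham libraries and 3.41, 3.89 and 4.83 in the control sham libraries. The BCAA-free sham libraries lay close together, and all 3 BCAA-free TAC libraries lay above them. The TAC value was 0.51 ± 0.13 on the BCAA-free diet (limma adjusted p = 0.0596) and 0.17 ± 0.17 on the control diet (adjusted p = 0.609), and the difference between them was 0.34 ± 0.21 (adjusted p = 0.614). Averaged over diets TAC raised Psph by 0.34 ± 0.10 (adjusted p = 0.0375). Exons of Cct6a share 452 bases with Psph on the opposite strand, and Cct6a did not pass in any comparison. Cct6a had up to 3696 reads in a library, against 100 to 225 for Psph. The part of Cct6a reads in the Psph level was not tested. The averaged TAC calls of Phgdh and Psph were lost after quantile normalization (adjusted p = 0.0651 and 0.0761) and without most single libraries. Phgdh passed without control TAC replicate 2 or BCAA-free TAC replicate 3 and in no other such omission (adjusted p = 0.0503 to 0.107). Psph passed without replicate 3 of control sham, control TAC or BCAA-free TAC and in no other (adjusted p = 0.0541 to 0.0842). The Psat1 call on the control diet was lost without control sham replicate 1 or 2 or any 1 of the control TAC libraries (adjusted p = 0.0643 to 0.106), and a call on the BCAA-free diet appeared without BCAA-free TAC replicate 3 (0.79, adjusted p = 0.021).

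Pycr1, the mitochondrial enzyme of the last step of proline synthesis (chromosome 11, 120635712 to 120643769, minus strand), was higher after TAC on both diets. Its level was 3.44, 2.04 and 1.57 CPM in the BCAA-free TAC libraries and 4.66, 2.75 and 3.69 in the control TAC libraries. It was 1.40, 0.779 and 1.35 in the BCAA-free sham libraries and 1.67, 1.85 and 1.71 in the control sham libraries. TAC libraries lay above the sham libraries of their diet without overlap, and replicate 1 was the highest in both TAC groups. TAC raised Pycr1 2.01-fold on the control diet (log2 1.01 ± 0.21, limma adjusted p = 0.0278) and by 0.95 ± 0.20 averaged over diets (adjusted p = 0.00637), and the value on the BCAA-free diet was 0.89 ± 0.31 (adjusted p = 0.128). For diet the values were -0.67 ± 0.29 in TAC hearts and -0.55 ± 0.24 in sham hearts (adjusted p = 0.242 and 0.261), and the average of -0.61 ± 0.20 had an adjusted p of 0.0603. The call on the control diet was lost without any 1 of the control sham libraries or without control TAC replicate 1 or 3 (adjusted p = 0.0514 to 0.119). The averaged diet value passed without BCAA-free TAC replicate 1 (-0.76, adjusted p = 0.0121) and by DESeq2 (adjusted p = 0.0394).

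Like Mthfd2, markers of dividing cells were highest in control TAC hearts. The 12 markers (Mki67, Top2a, Ccna2 and others; 11 were listed in all 12 libraries, and Bub1 was not listed in BCAA-free sham hearts) summed to 39.3 to 48.7 CPM in BCAA-free TAC, 121 to 144 in control TAC, 40.8 to 42.8 in BCAA-free sham and 41.4 to 59.3 in control sham hearts. Pcna, a clamp of DNA replication, made up 54.4 to 76.4%, 31.4 to 34.2%, 76.9 to 78.4% and 55.8 to 71.9% of these sums in the same order of groups. Without Pcna, set aside after the values were seen, the sums were 9.26 to 22.2 in BCAA-free TAC, 83.1 to 98.1 in control TAC, 9.27 to 9.59 in BCAA-free sham and 11.6 to 26.2 in control sham hearts. TAC raised 12 of 12 on the control diet (3.4% of all genes rose) and 1 of 11 tested on the BCAA-free diet (2.94%). On the BCAA-free diet the median log2 value for TAC over the 11 was 0.93, with 8 positive. The diet lowered 11 of 12 in TAC hearts (2.11% of all genes fell) and 2 of 10 tested in sham hearts (1.76%). Control sham replicate 1, the sham library with the most Mthfd2, had a marker sum of 50.6, and control sham replicate 2, with 2.20 CPM of Mthfd2, had 59.3. Aldh1l2 had its highest group mean in control sham hearts, where the marker sum was not highest, but this rested on replicate 1 at 11.6 CPM. Replicates 2 and 3 of that group stood at 5.52 and 7.36, against 5.53 to 7.44 in control TAC hearts. Fibroblast markers (9 of 9 listed in all libraries) summed to 1278 to 2757 CPM in BCAA-free TAC, 1498 to 3136 in control TAC, 718 to 805 in BCAA-free sham and 996 to 1024 in control sham hearts, and replicate 1 was the highest in both TAC groups, as it was for Pycr1. Macrophage markers (9 of 9) summed to 373 to 479, 303 to 501, 211 to 231 and 284 to 295 in the same order of groups. T cell markers (8 of 8 listed, 7 in all libraries) summed to 1.59 to 12.2, 2.20 to 2.82, 9.30 to 13.2 and 1.63 to 5.31, with the highest BCAA-free TAC value in replicate 1, and adipocyte markers (6 of 6) to 21.4 to 105, 11.8 to 47.5, 22.6 to 43.8 and 13.4 to 15.4. Endothelial markers (8 of 8) summed to 867 to 943, 1011 to 1135, 970 to 1114 and 1031 to 1334. The part of these cell types in the values of the 10 members was not tested.

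**Figure D4:**
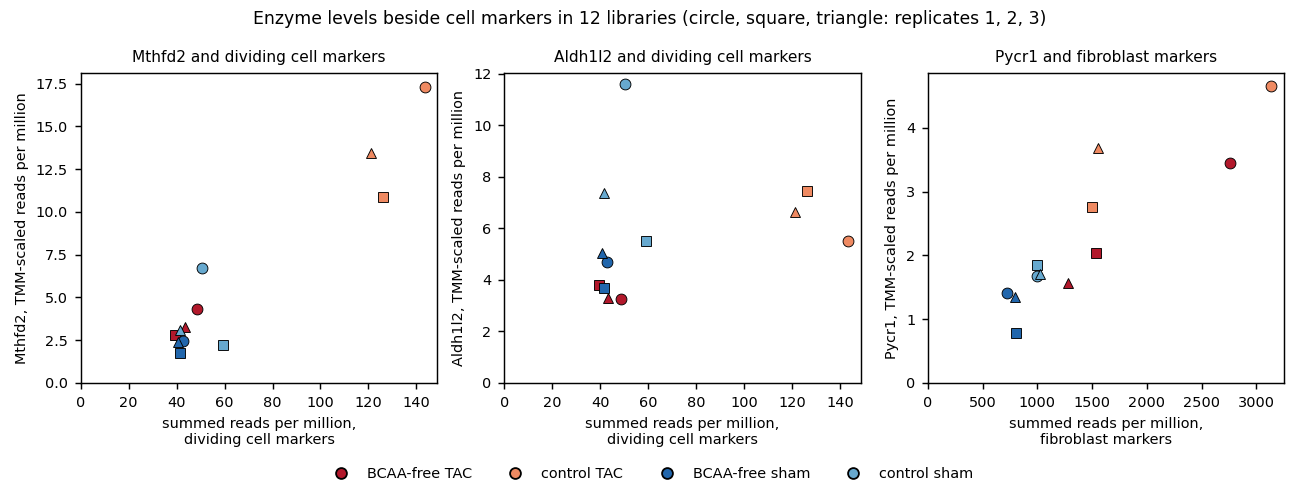
Levels of Mthfd2, Aldh1l2 and Pycr1 in TMM-scaled CPM against the summed level of dividing cell markers (first and second panels) or fibroblast markers (the third panel), a point per library in 12 libraries. The control TAC libraries, at 121 to 144 on the dividing cell axis, are the highest in Mthfd2 and not in Aldh1l2, and replicate 1 of both TAC groups is farthest right in the third panel.

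Other genes of the same metabolism mostly did not pass, apart from those of proline metabolism in the averaged tests. Over all genes tested, TAC raised 3.4% on the control diet, 2.94% on the BCAA-free diet and 9.67% in the average. In the average it lowered 1132 of 15524 genes. The BCAA-free diet raised 163 of 15596 genes and lowered 1.76% in sham hearts. Averaged over surgeries it raised 803 of 15458 genes and lowered 6.57%. Of 6 proline and glutamate-semialdehyde genes tested beside Pycr1, 2 rose and 1 fell with averaged TAC. With averaged diet, 2 of these 6 rose and 1 fell. Of 10 serine carriers and users tested, 3 rose with averaged TAC. Of 17 further folate enzymes and carriers tested, TAC on the control diet raised 1, thymidylate synthase Tyms (log2 1.09 ± 0.17, limma adjusted p = 0.0119), which also belongs to the dividing cell markers. Of 8 glycine genes tested, glycine N-methyltransferase Gnmt, also counted in the methionine cycle, rose on the BCAA-free diet in sham hearts (0.92 ± 0.16, adjusted p = 0.0161), and sarcosine dehydrogenase Sardh rose after TAC on the BCAA-free diet (0.62 ± 0.15, adjusted p = 0.0461). Of 13 purine synthesis genes, 1 fell and 1 rose with diet averaged over surgeries: the diet lowered Adss (-0.27 ± 0.06, adjusted p = 0.00943) and raised Adssl1 (0.22 ± 0.05, adjusted p = 0.0182), the broad and the muscle form of adenylosuccinate synthase. Of 10 to 11 serine carriers and users tested, the neutral amino acid carrier Slc1a4 rose after TAC on the control diet (0.94 ± 0.23, adjusted p = 0.0477) and on the BCAA-free diet (0.82 ± 0.17, adjusted p = 0.0282), and Slc1a5 rose in the average (0.37 ± 0.08, adjusted p = 0.00544). Beside Pycr1, Aldh18a1, which makes the pyrroline carboxylate that Pycr1 reduces, fell on the BCAA-free diet in sham hearts (-0.54 ± 0.12, adjusted p = 0.035) and in the average over surgeries (-0.52 ± 0.12, adjusted p = 0.0158), and rose with TAC averaged over diets (0.43 ± 0.12, adjusted p = 0.0309). Oat, which makes pyrroline carboxylate from ornithine, rose with the diet in the average (0.18 ± 0.05, adjusted p = 0.0334), and Aldh4a1, of proline breakdown, fell with TAC in the average (-0.31 ± 0.07, adjusted p = 0.0117).

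Atf4 and 14 other genes linked to ATF4, most of them known as its targets, were read beside the members. Of the 15, 13 were tested. Atf4 itself did not pass in any comparison. Its log2 values for diet were -0.03 ± 0.09 in TAC hearts and 0.03 ± 0.07 in sham hearts (limma adjusted p = 0.889 and 0.856). These are transcript values, and the amount and activity of ATF4 protein were not measured. Asparagine synthetase Asns rose with TAC averaged over diets (0.69 ± 0.15, adjusted p = 0.00686), as did the stress-induced gene Nupr1 (1.10 ± 0.20, adjusted p = 0.00284). On the BCAA-free diet TAC raised Nupr1 (1.52 ± 0.26, adjusted p = 0.012) and Ddit3 (0.43 ± 0.08, adjusted p = 0.0219). Cebpb, whose product pairs with ATF4 on the composite element, rose with TAC on the control diet (1.49 ± 0.30, adjusted p = 0.0258) and fell with the BCAA-free diet in TAC hearts (-0.98 ± 0.14, adjusted p = 0.00767). The list median for diet was 0.08 in TAC hearts, against 0.00425 over all genes tested, and -0.05 in sham hearts. For TAC it was 0.21 on the control diet and 0.16 on the BCAA-free diet.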

How the data were processed

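Polyadenylated RNA from mouse hearts in 12 libraries was sequenced. The submitters' processing notes name STAR 2.5.2b, Subread 1.5.2, Trimmomatic 0.36 and DESeq2, and GRCm38 (mm10) as the build. Neither the role of each tool nor any use of strand in counting is stated there. The authors deposited 4 tables, 1 per pair of groups. The deposited library columns hold a signal, a gene's reads over a library size factor made separately for each table, as the values show. The deposited fold changes are log2 values of the authors' comparison, and next to them are the authors' raw and adjusted p-value columns, per the file headers.

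Whole reads were recovered from the size factor steps; 100% of the values came out whole at a tolerance of 0.001 reads, and reads of a library were the same in both of its tables. Levels are these CPM with TMM factors (edgeR 4.0.16). Since the deposited values are normalised, each pair was tested in its own table by limma 3.58.1 (R 4.3.3), with an intensity trend, on log2(value + 4). Genes averaging under 10 were left out. Both TAC tables together gave the averaged TAC effect and its difference between diets, and both diet tables the averaged diet effect. Changes of low genes are understated on this scale. Benjamini-Hochberg adjustment ran over every gene tested. edgeR and DESeq2 1.42.0 on the recovered reads, other pseudocounts, filters and scalings, a replicate block and libraries left out were alternatives. The steps were tested on simulated data. Deviations of same-numbered libraries correlated at -0.0885 to 0.221 between the groups compared. The highest value was that of replicates 1 for diet in TAC hearts, where unlike-numbered libraries gave -0.174 to 0.0958. Numbers were not taken as pairs in the main tests, and a replicate block was run as an alternative. Replicate libraries of a group differed beyond counting noise. The chi-square per degree of freedom between 2 libraries was 118 and 88.2 for the pairs with control TAC replicate 2. It was 12.8 to 50.3 for the other pairs within a group.

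Of 16514 gene identifiers, 16475 were found in GENCODE M21, which gave coordinates, overlaps and exon lengths; promoters came from RefSeq. The members and lists were chosen with earlier results of these data known. All 10 members are named; of each other list, up to 2 genes per comparison, those of lowest p that passed and averaged 50 or more, are named, and Atf4 was named besides, after its values were seen. Genes of most similar pattern were ranked by Pearson's r of log2(CPM + 0.1).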

Additional observations from a re-analysis of the deposited data

How the results depend on the processing

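Across the alternatives run, the averaged TAC calls of Mthfd2, Mthfd1l, Psat1 and Pycr1 and the averaged diet calls of Mthfd2 and Mthfd1l passed in all, and that of Aldh1l2 in all but 1 (adjusted p = 0.0506 without control TAC replicates 2 and 3). The pairwise calls rest on 3 libraries a group, and each was lost without 1 library or more except the fall of Mthfd2 with diet in TAC hearts. The values whose sign turned are given below, and the cause of these changes was not tested.

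Leaving out 1 library at a time, the genes past the threshold numbered 91 to 660 for TAC on the control diet (848 with all libraries), 105 to 1195 for TAC on the BCAA-free diet (688), 100 to 1044 for diet in TAC hearts (548), 68 to 1019 for diet in sham hearts (438), 2 to 15 for the difference of TAC responses (7), 1733 to 2889 for averaged TAC (2633) and 1062 to 2484 for averaged diet (1819). Members past the threshold numbered 0 to 2, 0 to 1, 1 to 3 and 0 to 1 in the 4 pairs in that order. With neither control TAC replicate 2 nor 3, 180 genes and 0 members passed for TAC on the control diet by limma (6 members and 3097 genes at an unadjusted p under 0.05), 0 genes and 0 members for diet in TAC hearts (5 members and 1750 genes at an unadjusted p under 0.05), 1 gene for the difference of TAC responses and 850 for averaged diet. DESeq2 called 1544, 1159, 1181 and 826 genes in the 4 pairs and 109 for the difference of TAC responses, and 2 members for diet in sham hearts and 4 for TAC on the control diet. A pseudocount of 1 and quantile normalization each left 4 genes for the difference of TAC responses.

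Without pairing in the design, a replicate block gave 1275 genes for diet in TAC hearts, 713 and 1 member (Aldh1l2, adjusted p = 0.0347) for diet in sham hearts and 3 genes for the difference of TAC responses. For TAC on the control diet the block gave a call of Mthfd1l (adjusted p = 0.0203) and lost that of Psat1 (adjusted p = 0.0525), and for averaged diet it gave a call of Pycr1 (adjusted p = 0.0413).

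The sign turned within the range over single libraries left out for the following log2 values. For averaged diet, Mthfd1 ranged from -0.0534 to 0.000735 and Psph from -0.0472 to 0.0750, with -0.00698 by edgeR and -0.00645 by DESeq2. For diet in TAC hearts, Mthfd1 ranged from -0.0897 to 0.0187, Shmt1 from -0.166 to 0.0332 and Shmt2 from -0.146 to 0.0502, with 0.180 for Shmt1 and 0.0818 for Shmt2 without control TAC replicates 2 and 3. For diet in sham hearts, Mthfd1 ranged from -0.0361 to 0.00155. For averaged TAC, Mthfd1 ranged from -0.0373 to 0.0160, Shmt1 from -0.0924 to 0.00392 and Shmt2 from -0.0852 to 0.00906. For TAC on the BCAA-free diet, Shmt2 ranged from -0.107 to 0.0817. For TAC on the control diet, Aldh1l2 ranged from -0.504 to 0.0258 and Mthfd1 from -0.0522 to 0.0545, with -0.0186 without control TAC replicates 2 and 3. For the difference of TAC responses, Aldh1l2 ranged from -0.395 to 0.135 (0.116 without control TAC replicates 2 and 3), Mthfd1 from -0.0770 to 0.0297, Pycr1 from -0.422 to 0.126 and Shmt2 from -0.0432 to 0.145.

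The arm difference moved by more than the spread between libraries when Mthfd2 was left out (0.37 for TAC on the control diet and -0.80 for diet in TAC hearts) and when Aldh1l2 was left out (0.38 for TAC on the BCAA-free diet). With 1 library left out, an alternative added after the data were seen, it ranged from 0.663 to 1.01, 0.080 to 0.265, -1.16 to -0.990 and -0.610 to -0.266 in the 4 pairs in the same order.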

Other observations

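The genes whose levels ran most like Mthfd2 over the 12 libraries, by Pearson's r of log2 levels among 12737 genes, were Ppfia1 (0.951), Ltc4s (0.944), Ccnb2 (0.940), Nrm (0.931) and Lnx1 (0.928). Ccnb2 encodes a mitotic cyclin, and Ltc4s an enzyme of leukotriene synthesis. For the other members the nearest gene was Eipr1 for Mthfd1l (0.961), Tbcc for Phgdh (0.959), Galns for Pycr1 (0.956), Txndc5 for Psat1 (0.953), Kmt2a for Aldh1l2 (0.911), Ddit3 for Psph (0.900), Fam212a for Shmt1 (0.894), Leng9 for Shmt2 (0.861) and Tfb1m for Mthfd1 (0.818). These values describe points that share the 4 groups and were ranked after all genes were searched, so the highest of many is given.

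Among the members, Phgdh and Psat1, successive enzymes of serine synthesis, had the highest r over the 12 libraries (0.920), followed by Psat1 with Pycr1 (0.884), Phgdh with Pycr1 (0.827), Mthfd2 with Pycr1 (0.826) and Mthfd2 with Mthfd1l (0.824). Psph, the last serine enzyme, had r of 0.465 with Phgdh and 0.652 with Psat1. Aldh1l2 had r of 0.472 with Mthfd2 and 0.501 with Mthfd1l, and -0.295 with Psph. Shmt2 had r of 0.000 with Mthfd2 and 0.512 with Shmt1. The points share the group differences and the libraries' own spread, and no test was made.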
